A study of Homo sapiens with 17 samples.

Results

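Chamber myocardium is set apart from the pacemaker and from non-muscle heart cells by a small group of transcription factors, and 10 of their genes were followed here: NKX2-5, TBX5, TBX20, GATA4, HEY1, HEY2, HOPX, PRDM16, NR2F1 and NR2F2. They were picked by gene symbol, as 10 of the 20218 genes of the expression table, and the choice was made with earlier results of these data known. All 10 reached the level needed for testing, as did 14845 genes in all, and none was listed at 0 in any library.

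The 17 RNA-seq libraries came from H9, an established line of human embryonic stem cells, differentiated toward heart cells and sorted on GFP and mCherry. The cell line label reads SHOX2, which is a sinoatrial transcription factor gene, and the gene behind mCherry is not named in the sources used here. GFP+mCherry+ cells gave 3 libraries at day 25 of differentiation (libraries 1, 4 and 7) and 2 at day 40 (10 and 13). GFP-mCherry+ cells gave 3 at day 25 (2, 5 and 8) and 3 at day 40 (11, 14 and 17), and GFP-mCherry- cells gave 3 at day 25 (3, 6 and 9) and 3 at day 40 (12, 15 and 18). All 17 libraries carry the same cell type label, sinoatrial node-like cells. The growth protocol describes a cardiomyocyte differentiation and a sinoatrial one, which start with CHIR99021, BMP4 and Activin A. Only the sinoatrial one adds cucurbitacin, retinoic acid, SU5402, Tyrphostin AG 490 and chidamide, while XAV939 is used in both. The protocol does not say which of the populations came from which differentiation, so a difference between populations and a difference in treatment cannot be told apart. Nothing in the labels tells whether the libraries of a group are separate differentiations, so the p-values measure only the spread between these libraries, and all libraries come from 1 parental line.

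NKX2-5 (a homeodomain factor), GATA4 (a zinc finger factor), TBX5 and TBX20 (T-box factors) bind together at heart muscle genes and form the core of the chamber programme. HEY1 and HEY2 are repressors switched on by Notch signalling, HEY1 being known for the atria and HEY2 for the compact ventricular wall. HOPX encodes a small homeodomain protein that does not bind DNA, PRDM16 a zinc finger regulator of the compact myocardium, and NR2F1 and NR2F2 the COUP-TF nuclear receptors, which respond to retinoic acid and are known for atrial identity. In the sinoatrial node SHOX2 is known to hold NKX2-5 down, and TBX3 represses chamber genes.

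RefSeq promoter windows (GRCh38.p14) were found for 6 of the 10 genes, TBX20 and HEY2 with 1 start site each and TBX5, HOPX, NR2F1 and NR2F2 with 2 each. The stretches printed are the parts of the 250 bases upstream of a start that overlap no annotated exon, 5′ to 3′ on the gene's strand. TBX20 and HEY2 are shown because both were lower in the GFP+mCherry+ cells, NR2F1 because it was higher there at day 25, and HOPX because its window was the only printed one with a motif match. Capitals mark the match to the NK2 core motif, which reads CACTT here because it lies on the other strand, and the match to the T-box core motif.
TBX20, chr7:35254148-35254350, minus strand: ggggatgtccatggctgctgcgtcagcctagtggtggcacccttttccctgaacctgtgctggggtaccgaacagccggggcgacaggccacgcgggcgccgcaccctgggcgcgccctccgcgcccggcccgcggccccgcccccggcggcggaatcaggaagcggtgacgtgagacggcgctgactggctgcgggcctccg
HEY2, chr6:125749382-125749579, plus strand: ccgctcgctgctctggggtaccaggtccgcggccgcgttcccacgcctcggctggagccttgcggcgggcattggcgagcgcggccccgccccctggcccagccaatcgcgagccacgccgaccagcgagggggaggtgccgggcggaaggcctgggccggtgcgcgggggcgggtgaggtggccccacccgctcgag
NR2F1, first start, chr5:93582972-93583221, plus strand: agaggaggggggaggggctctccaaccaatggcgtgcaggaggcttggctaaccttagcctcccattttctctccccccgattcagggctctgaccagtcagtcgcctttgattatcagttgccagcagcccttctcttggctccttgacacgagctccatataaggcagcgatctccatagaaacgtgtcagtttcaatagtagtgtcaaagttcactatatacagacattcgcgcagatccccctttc
HOPX, second start, chr4:56656526-56656767, minus strand: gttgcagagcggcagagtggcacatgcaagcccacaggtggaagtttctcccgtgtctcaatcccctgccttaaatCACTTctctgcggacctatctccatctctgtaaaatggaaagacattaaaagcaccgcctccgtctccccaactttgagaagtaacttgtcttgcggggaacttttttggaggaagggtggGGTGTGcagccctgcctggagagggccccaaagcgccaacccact

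A set of 5 short motifs was searched on both strands of each 250-base window, and 7 of the members' 10 windows held none of them. The NK2 core, written AAGTG, was held by 37.6% of all 35116 promoters of the table. The GATA motif, written AGATAA, was held by 9.17% of promoters. The T-box core, written GGTGTG, was held by 14.2% of promoters. The E-box that HEY proteins bind, written CACGTG, was held by 6.34% of promoters. The nuclear receptor half-site, written AGGTCA, was held by 12.1% of promoters. The TBX20 and HEY2 windows held none, and 74% and 79.2% of their bases were guanine or cytosine, against a median of 58% over all promoters. The second HOPX window held the NK2 core at position -174 from the start site and the T-box core at -53. The first NR2F2 window held the most matches, the NK2 core at -48 and -38, the T-box core at -220 and the HEY E-box at -178 and -121, and the first HOPX window held the nuclear receptor half-site at -248; both lie in annotated exons and are not printed. Expression was measured for whole genes, so the start sites were not told apart, and a match describes letters only.

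Values are FPKM as deposited, a fragment count scaled to transcript length and library size, so levels of different genes can be set side by side per length. Differences are on the log2 scale of FPKM + 1, with the standard error of the limma fit and a Benjamini-Hochberg adjusted p over all tested genes. A gene was called where that p was under 0.05. After a log2 difference ± gives that standard error, and after an FPKM level it gives the standard deviation of the group's 2 or 3 libraries. SHOX2 was 49.0 to 139 FPKM in the 5 GFP+mCherry+ libraries and 0.253 to 2.41 FPKM in the remaining 12, so this defining gene of the labelled cell type was near 0 outside the GFP+ sort. The summed level of 10 cardiomyocyte markers (all 10 at 1 FPKM or more in each group's mean) was 6060 to 14770 FPKM in the GFP+mCherry+ libraries, 18173 to 33003 FPKM in the GFP-mCherry+ libraries and 761 to 3251 FPKM in the GFP-mCherry- libraries, so markers of the muscle cell type moved with the populations. The 10 fibroblast markers summed to 8556 to 14194, 1986 to 7337 and 7177 to 23129 FPKM in the same order, and 9 of them reached 1 FPKM on average in the GFP-mCherry+ cells of day 40 and all 10 elsewhere. Epithelial markers (8) summed to 550 to 1019, 326 to 477 and 1071 to 1662 FPKM, and epicardial markers (9) to 911 to 1463, 483 to 846 and 1429 to 2195 FPKM. Neural markers (8) summed to 99.4 to 249, 11.4 to 42.6 and 46.0 to 110 FPKM. Endothelial and endocardial markers (9 of 10 in the table) summed to 45.8 to 253, 20.9 to 62.0 and 78.9 to 173 FPKM, with VWF and CLDN5 each listed at 0 in 1 GFP+mCherry+ library of day 40. Smooth muscle (7), endoderm and hepatic (10), macrophage (6) and pluripotency markers (6) summed to 376 to 2308, 123 to 1772, 1.49 to 230 and 0.459 to 13.7 FPKM over the libraries, with the macrophage high in the GFP+mCherry+ cells of day 40 and NANOG at 0 in most libraries. The part of these cell types in the differences was not tested, and in such bulk samples fewer cells of a type and less RNA per cell cannot be told apart. Library 12 stood apart within its group (cardiomyocyte markers 3251 FPKM against 761 and 839), libraries 10 and 13 differed in several of the factors, and libraries 13 and 14 had the fewest genes above 0 (16493 and 16598, against 17108 or more in the rest). Library 1 also stood apart, with cardiomyocyte markers at 6060 FPKM against 14770 and 12773 in libraries 4 and 7. Its endothelial and endocardial markers were at 233 FPKM against 45.8 and 75.9. MYH6, also read as a check of the sort, was listed at 0 in GFP-mCherry+ library 17, beside 628 and 520 FPKM in libraries 11 and 14. It is among 41 values, in 33 genes, listed at 0 where the group's other libraries held at least 5 FPKM. Called values of the factors that leaving out 1 library moved by over 1.5 times are given with and without it, and fragment counts were not used here, so the depth is unknown.

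**Figure D1:**
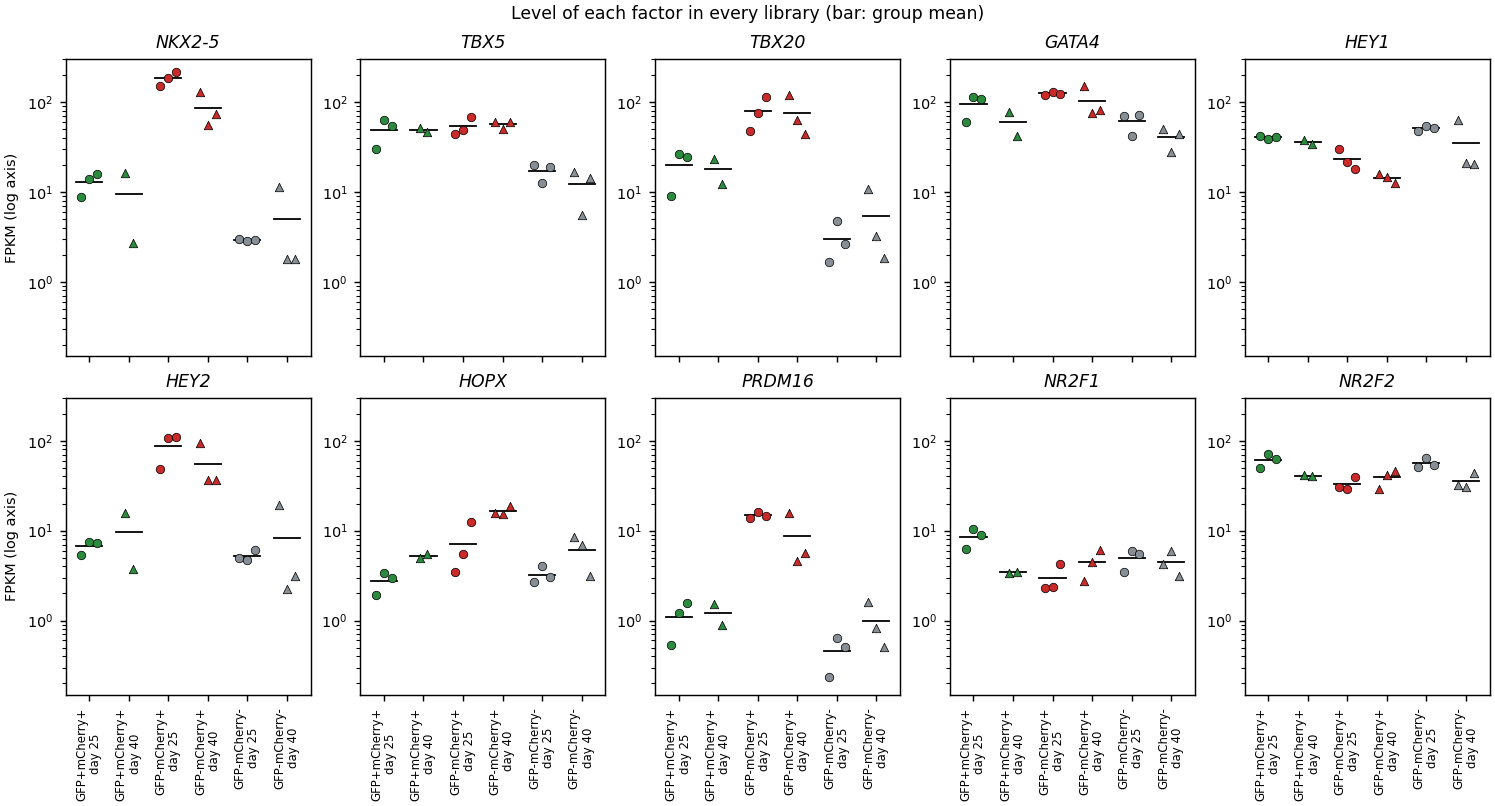
FPKM of the 10 factors, 1 panel each and a log scale, where every library is a point (circles day 25, triangles day 40, coloured by sorted population) and a black bar at the group mean. NKX2-5, TBX20, HEY2 and PRDM16 stand highest in the GFP-mCherry+ libraries, TBX5 stands at 30.2 FPKM or more in all 11 mCherry+ libraries, and NR2F2 stays between 28.9 and 72.0 FPKM.

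Between the mCherry+ populations at day 25, 6 of the 10 factors passed the test, against 20.4% of all tested genes: NKX2-5, TBX20, HEY2 and PRDM16 were lower in the GFP+mCherry+ cells, and NR2F1 and NR2F2 were higher. At day 40, 6 of 10 passed again, against 25.5% of all genes: NKX2-5, TBX20, HEY2, PRDM16 and HOPX were lower and HEY1 was higher. The median difference of the 10 was -0.71 at day 25 and -1.13 at day 40, beside 0.06 and 0.08 over all genes tested. Without library 13, 2 of the 10 passed at day 40 (NKX2-5 and PRDM16) and 1137 genes were called in all instead of 3783. That fit leaves the GFP+mCherry+ cells of day 40 with 1 library, which is assumed to vary like the other groups, as it does without library 10; a call lost there does not by itself show a smaller difference. TBX5 and GATA4 passed at neither day.

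**Figure D2:**
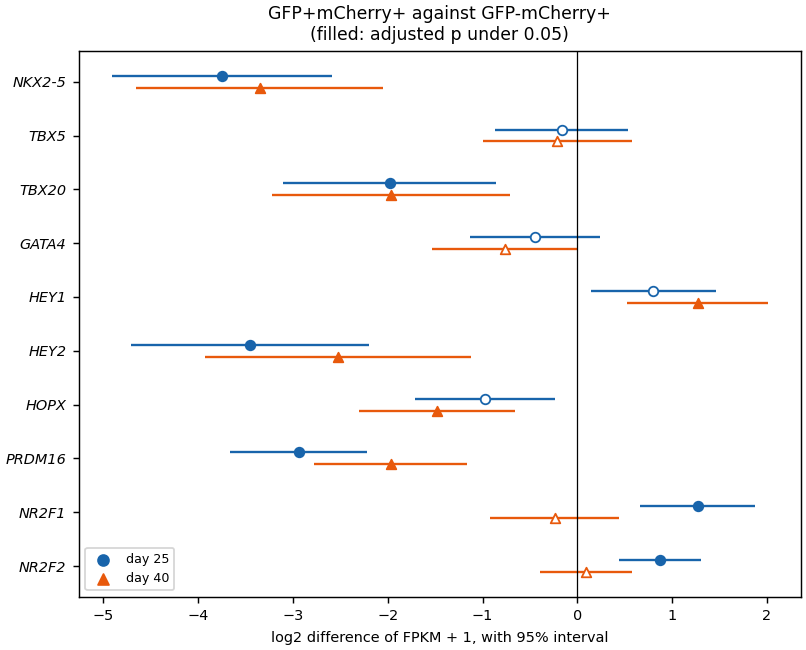
Log2 difference (FPKM + 1) of each factor between GFP+mCherry+ and GFP-mCherry+ cells at day 25 (circles) and day 40 (triangles), with 95% intervals; filled symbols have an adjusted p under 0.05 and values left of 0 are lower in the GFP+mCherry+ cells. NKX2-5, HEY2, PRDM16 and TBX20 lie left of 0 at both days, HEY1 lies right of 0, and TBX5 lies near 0.

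NKX2-5 (ENSG00000183072, hg19 chr5:172659112-172662360) spanned the widest range of the 10, from 1.77 to 215 FPKM over the libraries. At day 25 it stood at 8.87, 14.0 and 15.8 FPKM in the GFP+mCherry+ libraries and at 149, 186 and 215 FPKM in the GFP-mCherry+ libraries, a difference of -3.75 ± 0.55 (adjusted p = 0.000553). At day 40 it stood at 16.3 and 2.68 FPKM in the GFP+mCherry+ libraries 10 and 13, and at 128, 54.9 and 73.8 FPKM in the GFP-mCherry+ libraries (-3.35 ± 0.61, adjusted p = 0.00141). The difference was -2.24 (adjusted p = 0.0487) with library 10 alone and -4.47 (0.000513) with library 13 alone. The groups did not overlap at either day, although library 13 was far below library 10. In the GFP-mCherry- cells it was 2.86 to 2.96 FPKM at day 25 and 11.4, 1.77 and 1.79 FPKM at day 40, where library 12 held the high value. The GFP+mCherry+ cells thus lay between the others at day 25 (1.79 ± 0.55 above the GFP-mCherry- cells, adjusted p = 0.0457, a call lost without any 1 of the 6 libraries compared), and overlapped the GFP-mCherry- cells at day 40 (0.80, adjusted p = 0.417).

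TBX20 (ENSG00000164532, hg19 chr7:35242042-35293758), which holds TBX2 down in the chambers, formed a graded series. At day 25 it was 9.06, 26.1 and 24.4 FPKM in the GFP+mCherry+ libraries, 47.7, 74.7 and 115 FPKM in the GFP-mCherry+ libraries and 1.66, 4.78 and 2.64 FPKM in the GFP-mCherry- libraries, with no overlap between any of them. The GFP+mCherry+ cells were 1.98 ± 0.53 lower than the GFP-mCherry+ cells (a log2 difference of -1.98, adjusted p = 0.0163), and 2.32 ± 0.53 higher than the GFP-mCherry- cells (adjusted p = 0.0109, lost without library 3, 4 or 7, at 0.0503 to 0.0525). At day 40 the levels were 23.4 and 12.4, then 120, 62.5 and 44.6, then 10.9, 3.25 and 1.86 FPKM in the same order of populations. The mCherry+ difference was then -1.96 ± 0.59 (adjusted p = 0.0235), a call lost without library 11 (-1.57, adjusted p = 0.0901) or 13 (-1.53, 0.244), and at day 25 without library 1 (0.0778) or 8 (0.0762). Against the GFP-mCherry- cells of day 40 the difference was 1.78 ± 0.59 (adjusted p = 0.0613), and 2.37 (adjusted p = 0.0117) without library 12.

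TBX5 (ENSG00000089225, hg19 chr12:114791736-114846247), a factor of the atria, the left ventricle and the conduction system, did not follow its T-box relative. It was 30.2, 63.2 and 54.7 FPKM in the GFP+mCherry+ libraries of day 25 and 44.5, 49.3 and 67.8 FPKM in the GFP-mCherry+ libraries, which overlapped (-0.16, 95% interval -0.87 to 0.54, adjusted p = 0.767). At day 40 the levels were 50.7 and 46.7 against 60.3, 49.8 and 60.2 FPKM (-0.21, interval -0.996 to 0.57, adjusted p = 0.711). Both mCherry+ populations stood above the GFP-mCherry- libraries, which held 12.4 to 20.0 FPKM at day 25 and 5.56 to 16.7 FPKM at day 40. The GFP+mCherry+ cells were higher by 1.44 ± 0.33 at day 25 (adjusted p = 0.0109) and 2.04 ± 0.37 at day 40 (0.00252), and the GFP-mCherry+ cells by 1.61 ± 0.33 (0.00167) and 2.26 ± 0.33 (0.000121). The day 25 call of the GFP+mCherry+ cells was lost without library 4, 6 or 7 (adjusted p 0.0501 to 0.0552).

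GATA4 (ENSG00000136574, on hg19 chromosome 8) was high everywhere, at 27.8 to 151 FPKM. At day 25 it was 60.5, 113 and 109 FPKM in the GFP+mCherry+ libraries and 120, 130 and 123 FPKM in the GFP-mCherry+ libraries. The groups did not overlap, yet the difference of -0.45 ± 0.32 did not pass (adjusted p = 0.350). At day 40 they overlapped, at 77.2 and 42.3 against 151, 75.6 and 82.3 FPKM (-0.77 ± 0.36, adjusted p = 0.131). Against the GFP-mCherry- cells (42.1 to 71.1 FPKM at day 25 and 27.8 to 49.9 at day 40) the GFP-mCherry+ cells were higher by 1.06 ± 0.32 at day 25 (adjusted p = 0.0215, lost without library 5, 6 or 8) and 1.29 ± 0.32 at day 40 (0.00627), while the GFP+mCherry+ cells passed at neither day.

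The pair of Notch-responsive repressors went opposite ways. HEY2 (ENSG00000135547, hg19 chr6:126068810-126082415) was 5.39, 7.40 and 7.28 FPKM in the GFP+mCherry+ libraries of day 25 and 48.4, 107 and 109 FPKM in the GFP-mCherry+ libraries (-3.46 ± 0.59, adjusted p = 0.00143). At day 40 it was 15.7 and 3.70 FPKM against 93.3, 36.6 and 36.4 FPKM (-2.53 ± 0.66, adjusted p = 0.0112), with a difference of -1.61 (0.232) without library 13 and -3.44 (0.00613) without library 10. Against the GFP-mCherry- cells the GFP+mCherry+ cells passed at neither day; the former held 4.67 to 6.15 FPKM at day 25 and 19.3, 2.27 and 3.13 FPKM at day 40, again with library 12 high.

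HEY1 (ENSG00000164683, on hg19 chromosome 8) had its lowest levels in the GFP-mCherry+ cells. It was 38.7 to 41.3 FPKM in the GFP+mCherry+ libraries of day 25 and 30.1, 21.7 and 17.9 FPKM in the GFP-mCherry+ libraries, which did not overlap but did not pass (0.80 ± 0.31, adjusted p = 0.0812; 0.0475 with the library sets as a replicate block and 0.0231 with only these groups in the fit). At day 40 it was 38.2 and 33.8 against 15.9, 14.6 and 12.7 FPKM (1.27 ± 0.35, adjusted p = 0.0149), which was 1.18 (0.0697) without library 10 and 1.36 (0.0843) without library 13, both calls lost with a difference of much the same size. The GFP-mCherry- cells held 47.2 to 54.5 FPKM at day 25 and 63.5, 20.8 and 20.5 FPKM at day 40, above the GFP-mCherry+ cells at both days (the latter lower, at -1.13 ± 0.31, adjusted p = 0.0126, and -1.02 ± 0.31, adjusted p = 0.0202). The day 40 value moved to -0.50 (adjusted p = 0.0661) without library 12, whose 63.5 FPKM set the group's mean, and the call was lost without library 17 (0.0652) or with only these groups in the fit (0.0957); the day 25 call was lost without library 8 (0.0613).

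HEY2 therefore changed rank against HEY1 between the mCherry+ populations. The ratio of HEY2 to HEY1 in FPKM was 0.130, 0.191 and 0.177 in the GFP+mCherry+ libraries of day 25 and 0.410 and 0.110 at day 40. It was 1.61, 4.96 and 6.08 in the GFP-mCherry+ libraries of day 25 and 5.86, 2.504 and 2.88 at day 40. All 5 of the first were under 1 and all 6 of the second above it. The log2 ratio, taken with 1 FPKM added to each gene, differed by -4.06 between them (exact permutation test within days, two-sided, p = 0.005, the smallest that the 200 arrangements allow, and adjusted p = 0.01 over the 2 ratios tested). This ratio restates the HEY1 and HEY2 values given above for the same libraries. Its test was chosen with earlier results known, so it is not separate support. In the GFP-mCherry- libraries the ratio was 0.0857 to 0.304, so HEY1 was the more abundant there too. Of the other close relatives, NR2F2 was 5.12 to 14.6 times NR2F1 in the libraries. At day 25 this ratio was 7.96, 6.98 and 7.04 in the GFP+mCherry+ libraries and 13.4, 12.3 and 9.31 in the GFP-mCherry+ libraries, and at day 40 it was 12.1 and 11.6 against 10.6, 9.26 and 7.65. The populations did not overlap at either day but stood in opposite order, so the log2 difference over both days, -0.08 (exact permutation p = 0.56), joins opposite values; the days were not tested apart.

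**Figure D3:**
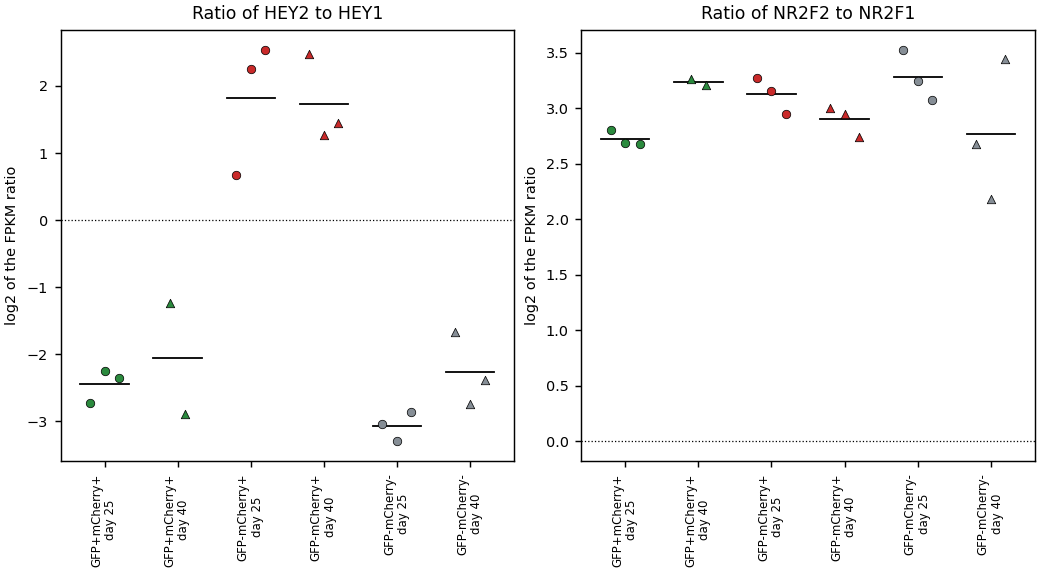
Log2 ratio of HEY2 to HEY1 (left) and of NR2F2 to NR2F1 (right) in each library, with symbols and colours by population and day, a bar at the group mean and a dotted line at equal levels. HEY2 exceeds HEY1 in the 6 GFP-mCherry+ libraries only, while NR2F2 exceeds NR2F1 in all 17.

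PRDM16 (ENSG00000142611, hg19 chr1:2985732-3355185) was under 2 FPKM in all 11 libraries outside the GFP-mCherry+ sort. At day 25 it was 0.536, 1.21 and 1.55 FPKM in the GFP+mCherry+ libraries and 13.7, 16.2 and 14.5 FPKM in the GFP-mCherry+ libraries (-2.94 ± 0.34, adjusted p = 0.000129). At day 40 it was 1.54 and 0.884 FPKM against 15.8, 4.60 and 5.64 FPKM (-1.97 ± 0.38, adjusted p = 0.00198). The groups did not overlap at either day. At such low levels the pseudocount sets part of the fold: with 0.1 in place of 1 the differences were -3.74 and -2.57. The GFP-mCherry- libraries held 0.235 to 1.60 FPKM, and the GFP+mCherry+ cells differed from them by 0.50 ± 0.34 at day 25 (adjusted p = 0.383) and 0.18 ± 0.38 at day 40 (0.787).

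HOPX (ENSG00000171476, hg19 chr4:57514155-57548065) was low, at 1.94 to 3.40 FPKM in the GFP+mCherry+ libraries of day 25 and 3.49, 5.44 and 12.3 FPKM in the GFP-mCherry+ libraries (-0.97 ± 0.35, adjusted p = 0.0591; 0.0422 with the replicate block). At day 40 it was 4.95 and 5.53 FPKM against 15.7, 15.2 and 18.6 FPKM (-1.48 ± 0.39, adjusted p = 0.0112), which was -1.42 (0.0517) without library 10 and -1.55 (0.0760) without library 13, both calls lost with a difference of much the same size. It was also higher in the GFP-mCherry+ than in the GFP-mCherry- cells of day 40 (8.40, 6.85 and 3.13 FPKM; 1.37 ± 0.35, adjusted p = 0.00669).

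NR2F1 (ENSG00000175745, hg19 chr5:92919043-92930321) and NR2F2 (ENSG00000185551, hg19 chr15:96869167-96883492) passed as higher in the GFP+mCherry+ than in the GFP-mCherry+ cells at day 25. NR2F1 was then 6.23, 10.3 and 8.84 FPKM against 2.29, 2.35 and 4.22 FPKM in the GFP-mCherry+ cells (1.27 ± 0.29, adjusted p = 0.00656), and NR2F2 was 49.6, 72.0 and 62.2 FPKM against 30.7, 28.9 and 39.2 FPKM (0.87 ± 0.20, adjusted p = 0.00837). At day 40 the groups overlapped for both: NR2F1 was 3.41 and 3.48 against 2.76, 4.44 and 6.09 FPKM (-0.24, interval -0.92 to 0.44), and NR2F2 was 41.3 and 40.4 against 29.3, 41.1 and 46.5 FPKM (0.09, interval -0.40 to 0.58). The change of the difference between the days was -1.51 ± 0.43 for NR2F1 (adjusted p = 0.323) and -0.78 ± 0.31 for NR2F2 (0.632), so the days were not shown to differ. In the GFP-mCherry- cells NR2F2 was 50.4 to 64.2 FPKM at day 25, above the GFP-mCherry+ cells (which were lower, at -0.75 ± 0.20, adjusted p = 0.0111, lost without library 5 or 6), and 30.7 to 43.9 FPKM at day 40.

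Against the GFP-mCherry- cells, the GFP-mCherry+ cells differed in 8 of the 10 factors at each day. At day 25, when 28.5% of all tested genes were called, NKX2-5 (5.54 ± 0.55, adjusted p = 3.42e-06), TBX20 (4.30 ± 0.53), HEY2 (3.76 ± 0.59), PRDM16 (3.44 ± 0.34), TBX5 and GATA4 were higher and HEY1 and NR2F2 lower. At day 40, when 31.9% were called, NKX2-5 (4.15 ± 0.55, adjusted p = 5.42e-05), TBX20 (3.75 ± 0.53), HEY2 (2.98 ± 0.59), TBX5, PRDM16 (2.15 ± 0.34), HOPX and GATA4 were higher and HEY1 lower. Without library 12 the day 40 differences of NKX2-5, TBX20 and HEY2 were 4.87, 4.34 and 3.80, and with a pseudocount of 0.1 those of PRDM16 were 4.81 at day 25 and 2.94 at day 40. The GFP+mCherry+ cells differed from the GFP-mCherry- cells in 3 of the 10 at day 25, TBX20, NKX2-5 and TBX5, all higher. At that day 11.1% of all genes were called. At day 40 they differed in TBX5 alone, a share of members near the 11.8% of all genes. Leaving out single libraries moved the day 25 count between 0 and 2 and the day 40 count between 1 and 3; the 3 without library 12 were TBX5, TBX20 and HEY1. These comparisons share samples with those between the mCherry+ populations, so their values are set side by side and not taken as separate support.

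**Figure D4:**
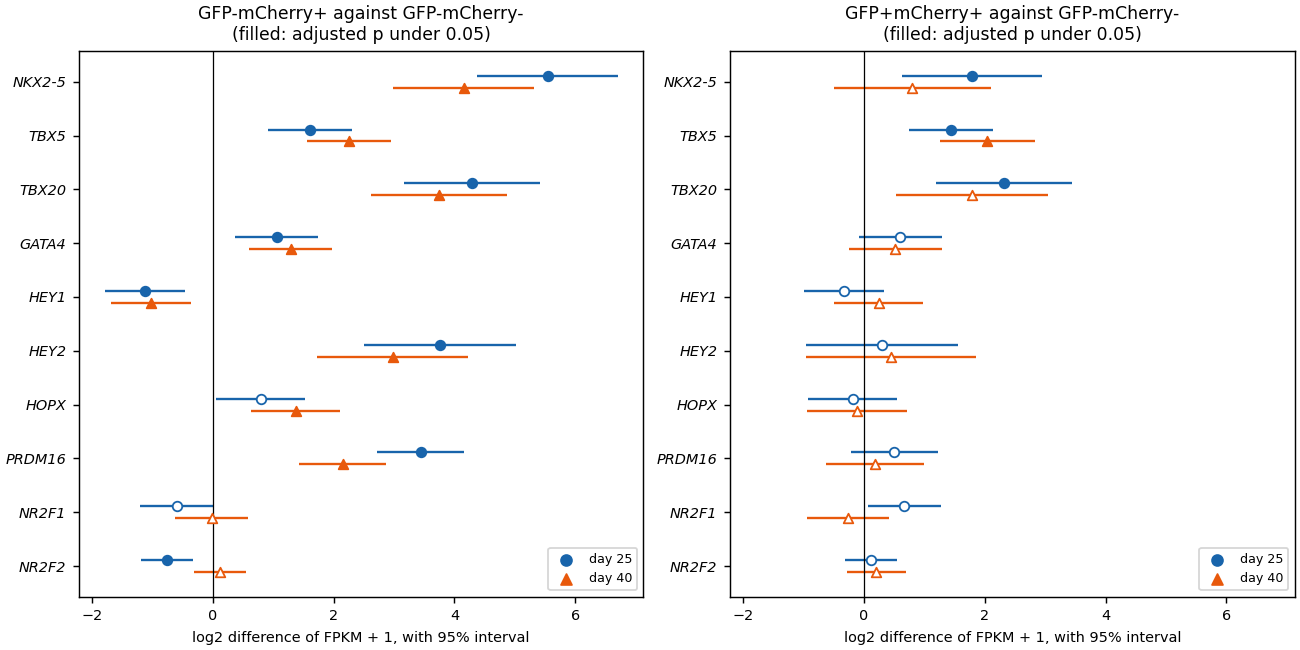
Log2 difference (FPKM + 1) of each factor in GFP-mCherry+ cells (left) and GFP+mCherry+ cells (right) against GFP-mCherry- cells at day 25 (circles) and day 40 (triangles), with 95% intervals; filled symbols have an adjusted p under 0.05. In the left panel NKX2-5, TBX20, HEY2 and PRDM16 lie farthest to the right of 0 at day 25, and in the right panel TBX5 is filled at both days.

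The factors were also read against TNNT2, the cardiac troponin T gene of the thin filament, because TNNT2 itself was 1006 to 2490 FPKM in the GFP+mCherry+ libraries, 4417 to 7001 in the GFP-mCherry+ libraries and 114 to 796 in the GFP-mCherry- libraries. Per 1000 FPKM of TNNT2, NKX2-5 was 8.82, 5.78 and 8.10 FPKM in the GFP+mCherry+ libraries of day 25 against 33.8, 31.3 and 38.3 FPKM in the GFP-mCherry+ libraries. At day 40 it was 6.53 and 1.23 against 18.3, 10.2 and 10.7 FPKM, again without overlap. The GFP-mCherry- libraries, where TNNT2 was lowest, held 17.7 to 25.7 FPKM at day 25 and 10.1 to 14.35 FPKM at day 40. On this scale the GFP+mCherry+ cells thus stood lowest in NKX2-5, not between the others. The low TNNT2 of the GFP-mCherry- cells raises their ratio, so this order is not that of NKX2-5 alone. HEY2 on this scale did not overlap at day 25 (3.05 to 5.36 against 11.0 to 19.5) and overlapped at day 40 (6.29 and 1.70 against 13.3, 6.78 and 5.26).

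TBX20 overlapped between the mCherry+ populations on the TNNT2 scale at both days, at 9.01 to 12.5 against 10.8 to 20.4 FPKM at day 25 and 9.42 and 5.68 against 17.1, 11.6 and 6.44 FPKM at day 40. TBX5 on this scale was higher in the GFP+mCherry+ libraries, at 26.1 to 30.1 against 8.28 to 12.1 FPKM at day 25 and 20.4 and 21.4 against 8.61 to 9.21 FPKM at day 40. GATA4 was higher there at day 25 (46.7 to 60.1 against 21.9 to 27.2 FPKM) and overlapped at day 40. HOPX overlapped at both days, at 1.99 and 2.54 against 2.24, 2.82 and 2.69 FPKM at day 40. PRDM16 was lower in the GFP+mCherry+ libraries at both days, and HEY1, NR2F1 and NR2F2 were higher, all without overlap. At day 25 the GFP-mCherry- libraries stood above both mCherry+ populations in TBX5 (119.3, 100.9 and 164.1 FPKM) and GATA4 (414.1, 342.3 and 624.2 FPKM). They also did so at both days in HEY1, HEY2, HOPX, NR2F1 and NR2F2. In TBX20 and PRDM16 they overlapped the GFP-mCherry+ libraries at both days. A low TNNT2 raises the ratio of every factor. The ratio divides by a gene that itself differed between the populations, so it shows unequal levels and no test was made on it.

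**Figure D5:**
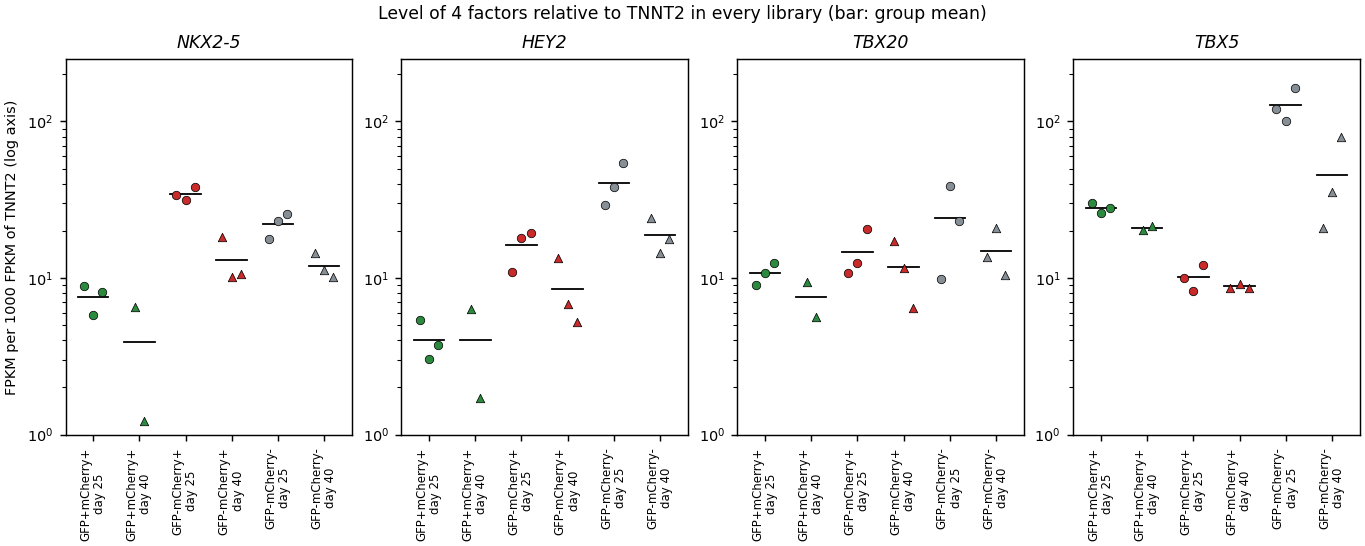
Level of NKX2-5, HEY2, TBX20 and TBX5 per 1000 FPKM of TNNT2 in each library on a logarithmic axis, with symbols and colours by population and day and a bar at the group mean. In the GFP+mCherry+ libraries NKX2-5 lies below, and TBX5 above, the GFP-mCherry+ libraries of the same day, while the TBX20 points overlap.

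Between day 25 and day 40 none of the 10 factors passed in any population by limma. In the GFP+mCherry+ cells 4.06% of all tested genes were called and 2 factors had an unadjusted p under 0.05: NR2F1, which went from 8.46 ± 2.07 to 3.45 ± 0.05 FPKM (-1.06 ± 0.32, adjusted p = 0.0729; -1.25 and 0.0415 without library 1), and NR2F2 (-0.56 ± 0.23, adjusted p = 0.184). In the GFP-mCherry+ cells 4.55% were called and 3 factors had an unadjusted p under 0.05: HOPX, at 7.09 ± 4.64 and 16.5 ± 1.87 FPKM (1.26 ± 0.35, adjusted p = 0.05001), PRDM16 (-0.88 ± 0.34, adjusted p = 0.160) and NKX2-5, at 183 ± 32.9 and 85.5 ± 37.9 FPKM (-1.16 ± 0.55, adjusted p = 0.273). Without library 11, where it was 15.8 FPKM, PRDM16 passed (-1.37, adjusted p = 0.00565), and HOPX passed without library 8 (1.70, adjusted p = 0.00976). In the GFP-mCherry- cells 3.87% were called and 2 factors had an unadjusted p under 0.05: NR2F2 (-0.65 ± 0.20, adjusted p = 0.0971) and HEY1 (-0.73 ± 0.31, 0.234), and HEY1 passed without library 12 (-1.26, adjusted p = 0.00407). The difference between the mCherry+ populations changed between the days for none of the 10 (2 genes called in all, 0.0135%; 2 factors with an unadjusted p under 0.05, NR2F1 and NR2F2).

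Of 18 chamber genes known to lie under these factors, 10 were lower in the GFP+mCherry+ than in the GFP-mCherry+ cells at day 25, 2 were higher and 6 did not pass. At day 40, 13 were lower, 1 was higher and 4 did not pass, with medians of -1.10 and -1.55 beside 0.06 and 0.08 over all genes. Of all genes tested, 8.38% were called lower and 12% higher at day 25, and 9.29% and 16.2% at day 40. NPPA, the atrial natriuretic peptide gene and a joint target of NKX2-5, GATA4 and TBX5, was 244 ± 4.86 against 1067 ± 301 FPKM at day 25 (-2.09 ± 0.50, adjusted p = 0.00917). GJA5, the connexin 40 gene and a TBX5 target, was 6.21 ± 3.01 against 43.8 ± 4.82 FPKM (-2.71 ± 0.33, adjusted p = 0.000177). GJA1, the connexin 43 gene, went the other way, at 166 ± 55.2 against 77.1 ± 4.95 FPKM (1.05 ± 0.26, adjusted p = 0.0114). The n was 3 libraries in each of these groups.

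The 6 ventricular genes were lower in 5 cases at day 25 and in all 6 at day 40, with medians of -4.17 and -3.66. MYL2, the ventricular regulatory light chain gene, was 1.48 ± 0.96 against 71.9 ± 56.4 FPKM at day 25 (-4.68 ± 0.49, adjusted p = 7.02e-05). IRX4, a ventricular homeodomain factor, was 2.51 ± 2.03 against 61.0 ± 13.4 FPKM at day 25 (-4.34 ± 0.50, adjusted p = 0.000129). Of 11 atrial genes 3 were higher and 4 lower at day 25, and 1 higher and 4 lower at day 40, with medians of 0.10 and -0.19. Beside both lists, 8.38% of all genes were called lower and 12% higher at day 25, and 9.29% and 16.2% at day 40. The 1 atrial gene higher at day 40 is no larger a share than that of all genes. SLN, the sarcolipin gene (1.98 ± 0.61, adjusted p = 0.0317), and KCNA5, an atrial potassium channel gene (0.86 ± 0.29, adjusted p = 0.0440), were among those higher at day 25, whereas NPPA, GJA5, MYL4 and PAM were lower. The first 3 of these also stand in the chamber list.

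Among 21 other cardiac transcription factors 9 were lower and 3 higher at day 25, and 7 lower and 3 higher at day 40. Over all genes 8.38% were called lower and 12% higher at day 25, and 9.29% and 16.2% at day 40. The 3 higher at each day are a share near that of all genes. MYOCD, the myocardin gene that partners serum response factor, was 8.47 ± 2.86 against 37.4 ± 9.03 FPKM at day 25 (-2.05 ± 0.34, adjusted p = 0.00126), and MEIS2, a homeodomain cofactor, was 78.4 ± 11.53 against 182 ± 29.1 FPKM (-1.20 ± 0.20, adjusted p = 0.00126). GATA6, the closest heart relative of GATA4, was 38.7 ± 0.46 against 40.6 ± 5.68 FPKM (-0.06, adjusted p = 0.840). Of the 4 sinoatrial factors SHOX2, TBX3 and ISL1 were higher at day 25, where SHOX2 checks the sort, and SHOX2 and ISL1 at day 40. ISL1, a LIM homeodomain factor of pacemaker and progenitor cells, was 10.7 ± 3.74 against 4.201 ± 1.70 FPKM at day 25 (1.17 ± 0.30, adjusted p = 0.0142).

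The factors' own families were mostly too low to test or did not pass. Of all tested genes, 20.4% were called at day 25 and 25.5% at day 40, so these small lists are not read as differing from all genes. Of 6 other NK2 genes 2 were tested, and NKX2-6, the nearest relative of NKX2-5 in early heart tissue, was 0.819 ± 0.511 against 9.26 ± 2.08 FPKM at day 25 (-2.52 ± 0.24, adjusted p = 3.18e-05), while NKX2-3 was higher (0.72 ± 0.19, adjusted p = 0.0169). At day 40 NKX2-6 was listed at 0 in both GFP+mCherry+ libraries and stood at 1.02 ± 0.48 FPKM in the GFP-mCherry+ cells. Of 13 other T-box genes 7 were tested: TBX3 and TBX19 were higher and TBX10 lower at day 25, and TBX19 higher and TBX10 lower at day 40, the last 2 of these genes at under 5 FPKM in all groups. Of 7 GATA genes and cofactors 6 were tested, with GATA3 higher and GATA5 lower at day 25 and ZFPM1 lower at day 40. Of 12 PRDM16 relatives 9 were tested, and by limma 0 passed at day 25 (3 with an unadjusted p under 0.05) and PRDM1 and PRDM10 were higher at day 40. Of 5 other NR2 receptors 3 were tested and 0 passed at either day by limma (0 and 0 with an unadjusted p under 0.05).

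Of the Notch pathway, which feeds HEY1 and HEY2, 16 of 17 listed genes were tested. At day 25 HES1, JAG1 and HEYL were higher and JAG2 lower in the GFP+mCherry+ than in the GFP-mCherry+ cells, and at day 40 HEYL, HES1, NOTCH2 and NOTCH1 were higher, with medians of 0.09 and 0.45 over the list. These 4 of 16 at each day are a share near that of all genes called (20.4% and 25.5%). HES1, another repressor switched on by Notch, was 145 ± 77.3 against 41.9 ± 19.5 FPKM at day 25 (1.72 ± 0.44, adjusted p = 0.0132), and HEYL, the third HEY gene, was 5.59 ± 1.94 against 2.00 ± 0.09 FPKM (1.10 ± 0.33, adjusted p = 0.0304). Both had the sign of the HEY1 difference, opposite to that of HEY2. Against the GFP-mCherry- cells, the GFP-mCherry+ cells were lower in 8 of the 16 at day 25 and 9 at day 40, and none of the 16 passed as higher. In that comparison 16.4% and 18.5% of all genes were called lower. Of 8 endothelial genes tested, KDR, TEK and ERG were higher in the GFP+mCherry+ than in the GFP-mCherry+ cells at both days, and 5 did not pass. Of all genes, 12% were called higher at day 25 and 16.2% at day 40. Against the GFP-mCherry- cells of day 25, the GFP+mCherry+ cells were lower in 6 of the 8, beside 5.27% of all genes. The part of the endothelial genes in the Notch values was not tested.

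Few retinoic acid pathway genes, listed beside the COUP-TF genes, passed between the mCherry+ populations. In that comparison 20.4% of all tested genes were called at day 25 and 25.5% at day 40. Of 17 tested, 1 passed at day 25, the receptor gene RXRG at 7.96 ± 3.06 against 21.8 ± 5.04 FPKM (-1.39 ± 0.40, adjusted p = 0.0218), and 0 at day 40 by limma (3 with an unadjusted p under 0.05; -1.10 and adjusted p = 0.0794 for RXRG). The retinoic acid-making genes ALDH1A2 and RDH10 stood at 18.3 ± 1.92 against 19.3 ± 14.3 FPKM and 26.1 ± 4.12 against 32.2 ± 7.66 FPKM at day 25. Both were lower in the mCherry+ cells than in the GFP-mCherry- cells of day 25, which held 127 ± 55.0 and 136 ± 58.5 FPKM: for the GFP+mCherry+ cells the differences were -2.63 ± 0.48 (adjusted p = 0.00232) and -2.26 ± 0.34 (0.000479), and for the GFP-mCherry+ cells -2.86 ± 0.48 (0.000352) and -1.98 ± 0.34 (0.000382). ALDH1A2 is also among the epicardial markers summed above, and the part of epicardial cells in its values was not tested.

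Over the 17 libraries, the genes whose log2 levels followed each factor most closely were read by Pearson's r among 11967 candidates. For NKX2-5 they were FITM1 (0.990), MYL3 (0.987) and HSPB7 (0.985), for HEY2 HSPB7, AGPAT9 and CREM (0.976 to 0.978), for TBX20 PPP1R3C, FSD2 and PDK3 (0.986 to 0.989) and for PRDM16 C14orf180, C1QTNF1-AS1 and HSPB2 (0.979 to 0.987). For TBX5 they were EPM2AIP1, HCN4 and PLCB4 (0.965 to 0.967), HCN4 being the pacemaker channel gene. The closest gene reached 0.928 for GATA4 (CLIC4), 0.901 for HOPX (S100A8), 0.869 for HEY1 (MYPOP), 0.843 for NR2F2 (AZIN1) and 0.765 for NR2F1 (RAB18). These values describe libraries that fall into separate populations and share their sorts, and a high r here can arise from the difference between populations alone.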

How the data were processed

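Per the labels' protocols, sequencing libraries came from total RNA by a TruSeq RNA kit. The submitters' processing notes name bcl2fastq 2.19, cutadapt, STAR 2.5.2b, Cufflinks 2.1.1 and the build hg19. The authors deposited 1 table, read here as FPKM: no header states the unit, which was inferred from Cufflinks and from the range of the values. Its 20368 rows gave 20218 genes after rows of a name were summed. Each column was matched to a library by the number that opens the sample title (17 libraries, no library 16 among the samples).

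Values were taken as log2(FPKM + 1). Genes with 1 FPKM or more in at least 2 libraries (14845) were fitted with limma 3.58.1 in R 4.3.3 (lmFit, eBayes with a trend), with a mean for each of 6 groups over all 17 libraries. P-values were Benjamini-Hochberg adjusted within each of 10 comparisons, with a threshold of 0.05. The fit was tested on simulated data. The paralog ratios were tested by exact permutation within days. The members, the gene lists (written from textbook knowledge) and the tests were chosen with earlier results of these data known, so they are not independent support. Beside the members, up to 4 called genes of smallest adjusted p were eligible in each list; GATA6, NPPA at day 25, GJA1 at day 25, ALDH1A2, RDH10 and the endothelial genes were named after their values were seen; the 3 nearest genes of a member were those of highest r. Low values showed no whole-read steps, so no counts were recovered. Some genes of the lists are counted but not reported here by name.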

Additional observations from a re-analysis of the deposited data

How the results depend on the processing

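Of 991 recomputed member values, 920 kept their direction and side of the threshold, 37 lost the call, 15 gained it and 19 changed sign. The alternatives were another pseudocount (0.1), no filter or a filter at 5 FPKM, median-of-ratios and quantile scaling, only the groups compared, values listed at 0 set to missing, a replicate block, and leaving out libraries. No sign change concerned a called value. In the GFP+mCherry+ cells the 1 sign change between the days, of NR2F2, came from the replicate block. That fit cannot separate the days from the sets. With 1 library left out, TBX5 between the mCherry+ populations of day 25 ranged from -0.37 to 0.15, and NR2F2 at day 40 from -0.10 to 0.23 (-0.00223 with median-of-ratios scaling). Between GFP-mCherry+ and GFP-mCherry- cells of day 40, NR2F1 ranged from -0.23 to 0.22 (0.048 with median-of-ratios scaling, 0.18 with quantile scaling) and NR2F2 from -0.020 to 0.31. Between GFP+mCherry+ and GFP-mCherry- cells NR2F2 at day 25 ranged from -0.0076 to 0.26, and at day 40 NKX2-5 from -0.32 to 1.91, HEY2 from -0.46 to 1.36, PRDM16 from -0.030 to 0.40, HOPX from -0.46 to 0.13 and HEY1 from -0.023 to 0.77. These leave-one-out ranges cover the library that stands apart in each group, and the cause of the sign changes was not tested.

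The number of factors called between the mCherry+ populations ranged from 5 to 7 at day 25 and from 2 to 6 at day 40 with 1 library left out, and was 2 at day 40 without libraries 13 and 14. Between GFP+mCherry+ and GFP-mCherry- cells it ranged from 0 to 2 at day 25 and from 1 to 3 at day 40. Between the days it ranged from 0 to 1 in each population, and in the GFP-mCherry+ cells it was 1 with the filter at 5 FPKM and 1 with zeros set to missing (HOPX both times). The difference between the mCherry+ populations in the log2 ratio of HEY2 to HEY1 ranged from -4.33 to -3.91 with 1 library left out.

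The labels give no shared origin for consecutive library numbers, and the deviations of libraries in a set of consecutive numbers correlated at a mean r of 0.142 (-0.123 to 0.458, 16 pairs), above the -0.0215 of other sets but not in every pair, so the sets were not taken as pairs. With the number as a replicate block, 8 factors were called between the mCherry+ populations at day 25 (HEY1 and HOPX added). Between GFP+mCherry+ and GFP-mCherry- cells at day 40 the count was 2 (TBX20 added, 1.41, adjusted p = 0.00988). Each set of consecutive numbers lies within 1 day, so that fit cannot separate the days from the sets. Its values between the days, such as 0.054 for NR2F2 in GFP+mCherry+ cells, are therefore not read as differences between the days.

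Over all genes, calls between the mCherry+ populations ranged over the alternatives from 1765 to 3580 at day 25 (3023 as reported) and from 1137 to 4226 at day 40 (3783). Calls of GFP+mCherry+ against GFP-mCherry- cells ranged from 851 to 2104 at day 25 (1641) and from 474 to 2128 at day 40 (1751). For the days they ranged from 90 to 1011 in GFP+mCherry+ cells (602), from 10 to 1620 in GFP-mCherry+ cells (675) and from 52 to 575 in GFP-mCherry- cells (575). The 90 and the 52 came from the replicate block, which cannot separate the days from the sets. Quantile scaling moved the median of all genes between the mCherry+ populations of day 40 from 0.08 to -0.06 and the share of calls that were higher from 63.5% to 49.9%, with 6 factors still called. Depth is unknown, so no counting limit can be given.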
